A study of Mus musculus with 61 samples.

Results

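The 21355 genomic sites described here are the places where Sox2 was mapped by chromatin immunoprecipitation at day 3 of reprogramming in cells with the Chaf1a.166 hairpin, in cells with the Renilla hairpin, or in both. The binding positions of both lists were pooled, and neighbours within 200 bp were joined into 1 site. A site was called shared where both lists held a position in it, Chaf1a.166-only where just that list did, and Renilla-only where just the control list did. The series holds 25432 such sites when the list of the remaining hairpin, Chaf1a.2122, is pooled with them. Which sites exist therefore rests on the deposited positions, while the places, genes and promoter sequences of the sites, and the Chaf1a.2122 list, were not used to form the classes.

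The series asked how the histone chaperone CAF-1 bears on the reprogramming of mouse fibroblasts. All groups used here were mouse embryonic fibroblasts from E13.5 embryos of the strain Black6-129X1/SvJ with the genotype Col1a1::tetOP-OKSM ; R26-M2rtTA. The tetracycline operator drives a cassette of Oct4, Klf4, Sox2 and Myc from the Col1a1 locus, and the rtTA transactivator is expressed from Rosa26, so the Sox2 that was mapped includes the induced transgene product. Cells carried either a hairpin of the Chaf1a knockdown or the Renilla control hairpin, which targets a luciferase that mouse cells lack, and were collected after 3 days in 2 ug/ml doxycycline. Each hairpin had 1 immunoprecipitate with a goat polyclonal anti-Sox2 antibody and 1 input library, so no p-value between hairpins is given and the intervals cover counting error only. The level of Chaf1a in these cells was not checked here, and the defining markers of the cells were not measured by these lists.

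Sox2 is a transcription factor of the SRY-box family that bends DNA at short motifs related to ACAAAG and, together with Oct4, occupies composite elements that control pluripotency genes. CAF-1 is a complex of Chaf1a, Chaf1b and Rbbp4 that places histones H3 and H4 on newly copied DNA. In fibroblasts most pluripotency genes lie in closed chromatin, and the induced factors reach them step by step during reprogramming.

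The sequences of a few promoters are given as examples, picked from among the best of each class, and are not representative of the classes. These are promoters whose best Sox2 position fell within 250 bp upstream to 50 bp downstream of a start site, and the 200 bases before the start in RefSeq (GRCm38.p6, 5′ to 3′ along the gene) are shown for 3 shared, 2 Chaf1a.166-only and 2 Renilla-only sites, in that order. Capitals mark the motifs searched on both strands, which were ACAAAG and ACAATG (Sox), ATGCAAAT (the octamer of Oct4), TGANTCA (AP-1), and the Sox-Oct composite, read as ATTGT, any base, then the octamer.
Nrarp (chr2:25180558-25180757, + strand): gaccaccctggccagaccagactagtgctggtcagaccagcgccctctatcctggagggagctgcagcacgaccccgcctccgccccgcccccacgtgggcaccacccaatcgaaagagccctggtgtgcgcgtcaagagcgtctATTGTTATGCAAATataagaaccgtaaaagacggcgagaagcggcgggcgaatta
Pipox (chr11:77893873-77894072, - strand): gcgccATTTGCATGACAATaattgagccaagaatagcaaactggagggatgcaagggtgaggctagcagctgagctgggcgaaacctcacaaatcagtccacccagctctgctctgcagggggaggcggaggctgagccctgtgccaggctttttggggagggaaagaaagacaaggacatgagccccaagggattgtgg
Mobp (chr9:120149542-120149741, + strand): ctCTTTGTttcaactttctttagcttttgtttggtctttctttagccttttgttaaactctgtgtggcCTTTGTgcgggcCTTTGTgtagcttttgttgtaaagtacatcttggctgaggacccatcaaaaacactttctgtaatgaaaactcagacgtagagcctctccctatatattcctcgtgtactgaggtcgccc
Hist1h2ae (chr13:23571221-23571420, - strand): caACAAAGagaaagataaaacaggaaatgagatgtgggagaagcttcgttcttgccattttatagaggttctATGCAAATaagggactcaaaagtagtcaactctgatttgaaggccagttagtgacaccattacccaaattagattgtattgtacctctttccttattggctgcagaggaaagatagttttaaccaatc
Hist4h4 (chr6:136804432-136804631, - strand): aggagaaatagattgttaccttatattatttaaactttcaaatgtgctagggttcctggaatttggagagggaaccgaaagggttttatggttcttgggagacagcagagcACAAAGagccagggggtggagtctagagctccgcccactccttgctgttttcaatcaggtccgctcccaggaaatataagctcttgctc
Copz1 (chr15:103272688-103272887, + strand): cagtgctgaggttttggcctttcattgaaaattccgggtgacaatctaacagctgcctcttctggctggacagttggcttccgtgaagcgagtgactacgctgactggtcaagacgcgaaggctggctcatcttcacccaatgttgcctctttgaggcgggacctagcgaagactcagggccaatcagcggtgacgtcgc
Nras (chr3:103058085-103058284, + strand): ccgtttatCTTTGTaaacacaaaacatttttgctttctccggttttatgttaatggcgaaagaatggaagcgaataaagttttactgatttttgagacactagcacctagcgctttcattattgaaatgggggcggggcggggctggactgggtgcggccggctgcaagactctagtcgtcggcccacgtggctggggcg
The RefSeq start can differ from the start listed for the same gene in mm9, on which the Sox2 positions lie.

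At Nrarp, which encodes a feedback inhibitor of Notch signalling, the site ranked 4 of 15888 by score in the Chaf1a.166 list and 8 of 17681 in the Renilla list, and lay 61 bp upstream of the mm9 start. Its promoter holds the composite, beginning 55 bases before the RefSeq start. At Pipox, a peroxisomal oxidase of sarcosine and pipecolic acid, the site ranked 52 and 64 and lay 192 bp upstream, and the composite begins 195 bases before the start on the minus strand. Only 6 of 32851 RefSeq promoters hold this composite. The class counts that follow come only from listed genes with exactly 1 RefSeq promoter on the same chromosome. Of the promoters with a Sox2 site in the window it was found in 2 of 116 shared, 0 of 69 Chaf1a.166-only and 0 of 58 Renilla-only ones, and those 2 are Nrarp and Pipox, which have the best ranks among the 116. The composite was searched after their sequences had been seen, so this count is a description. The Mobp promoter, of a myelin protein gene, holds ACAAAG on the minus strand 6 times within its 300-base window, of which 3 lie in the bases shown, and its site ranked 131 and 327.

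The single-list promoter sites shown ranked lower. The Hist1h2ae site, at rank 5084 of the Chaf1a.166 list and 80 bp upstream, lies between the divergent histone genes Hist1h2ae and Hist1h2bg, and its octamer is the element that H2B promoters are known for. The Hist4h4 site ranked 6572, 178 bp upstream. Between them came Plekhg2, which is not shown. Its site ranked 6110 and its window held none of the motifs. On the control side the Copz1 site, at a coatomer subunit gene, ranked 8261 and its window held none of the motifs, while that of Nras, the Ras GTPase gene, ranked 8333 and held ACAAAG once. The shares below set windows of listed genes with a single RefSeq promoter beside all RefSeq promoters, so the sets are unlike. Over all windows ACAAAG was present in 31.9% of shared (95% exact Clopper-Pearson interval 23.6 to 41.2), 14.5% of Chaf1a.166-only (7.17 to 25.04) and 24.1% of Renilla-only promoters (13.9 to 37.2), beside 18.7% of all RefSeq promoters. The octamer was in 8.62% (4.21 to 15.3), 2.90% (0.353 to 10.1) and 5.17% (1.08 to 14.4), beside 1.74% of all. The Chaf1a.166-only share is 2 of 69 promoters, Hist1h2ae and Hist1h2bg. Their windows overlap on opposite strands, so the same octamer at 1 Sox2 site is counted for both, while the interval takes them as independent. ACAATG was in 20.7%, 8.70% and 17.2%, beside 12.6%, and the AP-1 motif in 6.03%, 5.80% and 5.17%, beside 7.81%. For each of these 4 motifs the intervals of the 3 classes overlap. The median GC content of the windows was 56.5%, 58.0% and 57.8%, against 52.7% in all RefSeq promoters.

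The shared class was the largest, and it took in the best 1000 positions of each list. Of the 21355 sites, 12175 were shared (57.0%, 56.3 to 57.7), 3699 were Chaf1a.166-only (17.3%, 16.8 to 17.8) and 5481 were Renilla-only (25.7%, 25.1 to 26.3). The Renilla list is longer, with 17681 positions against 15888, and its lowest score is 13.3 against 14.8. When the Renilla list was shortened to its best 15888 positions by score, 11651 sites were shared, 4225 were Chaf1a.166-only and 4216 Renilla-only. The near equality of the last 2 numbers follows from the equal lengths. The Chaf1a.166-only share of all single-list sites was 40.3% (39.3 to 41.3) as deposited and 50.1% (49.0 to 51.1) at equal length. Read depth is unknown, so where a list lacks a site, only its falling under the threshold of the caller is known. At equal length a class can also arise from the shortening itself. The site 248 bp from the start of Stat3, the transcription factor of LIF signalling, then counted as Chaf1a.166-only, although the full Renilla list has a position 34 bp away.

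Single-list positions were rare at high ranks. Among the best 5000, 34 Chaf1a.166 positions (0.680%, 0.471 to 0.949) and 62 Renilla positions (1.24%, 0.952 to 1.59) were single-list. Further down, the shared part fell with each bin of 1000 in Chaf1a.166, to 39.9% (36.6 to 43.2) of the last 888 positions. In Renilla it fell to 27.1% (24.4 to 30.0) of ranks 16001 to 17000 and was 31.4% (28.0 to 35.1) in the last 681 positions. By the authors' enrichment over input, compared only within a list, the median was 9.36 for shared (quartiles 5.71 and 17.1) and 6.03 for single-list Chaf1a.166 positions (3.88 and 10.3). In the Renilla list the medians were 9.65 (5.73 and 17.6) and 5.73 (3.76 and 9.54).

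**Figure D1:**
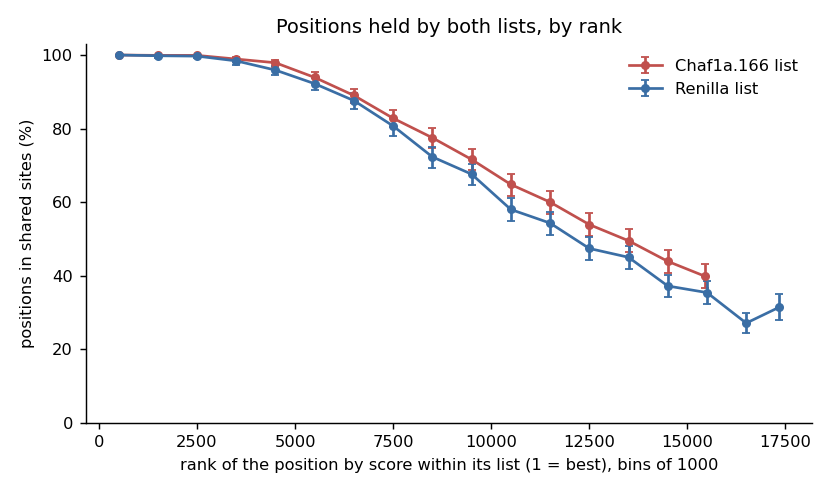
Share of positions that lie in shared sites (%, y axis) against the rank of the position by score within its list (x axis, bins of 1000), for the Chaf1a.166 (red) and Renilla (blue) lists, with 95% exact Clopper-Pearson intervals. Both curves start at 100% in the best 1000 positions and end at 39.9% and 31.4% in the last, partly filled bins.

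In shared sites the gap between the positions of the lists is limited by the joining distance of 200 bp, so it is a description. The median gap was 27 bp (upper quartile 51 bp, signed median 1 bp) over the 12141 shared sites to which each list gave a single position. Ranks were related, with a Spearman rank correlation of 0.757 over the 12175 shared sites. It is given as a description because both lists are ordered by peak score and may share regions that are easy to map, which was not tested. Of the best 100 of each list, 73 sites were in both, and of the best 1000, 776. Few single-list sites were near misses of the joining distance. A position of the other list lay within 500 bp of 95 Chaf1a.166-only sites (2.57%) and 142 Renilla-only sites (2.59%). At the edge of the rule, 87 shared sites had positions over 150 bp apart, while 20 Chaf1a.166-only and 26 Renilla-only sites had a position of the other list over 200 and up to 250 bp away.

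**Figure D2:**
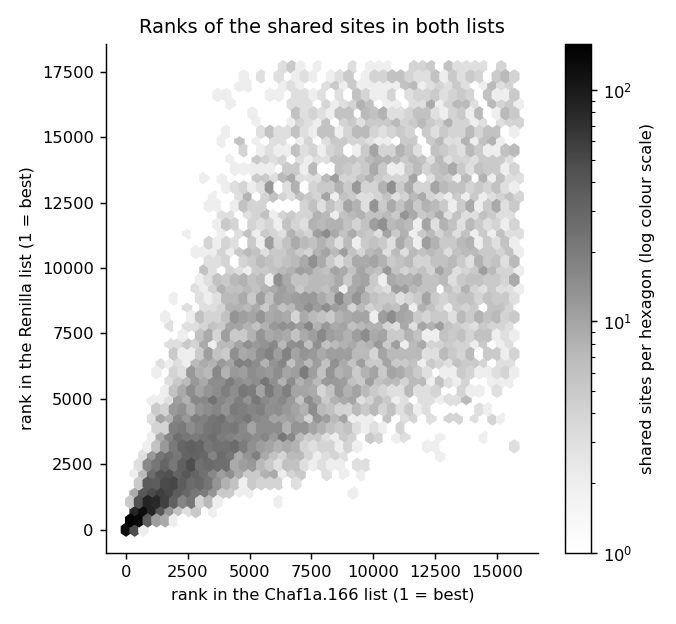
Rank of each of the 12175 shared sites in the Chaf1a.166 list (x axis) and in the Renilla list (y axis), 1 being the best score, with shading on a log scale for the number of sites per hexagon. The best-ranked sites lie close to the diagonal, and the spread widens towards the lower ranks of both lists.

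The best shared sites near start sites lay at genes of several kinds. After Nrarp came Otud7b, a deubiquitinase gene (ranks 24 and 27, 515 bp from the start), and Spc24, of the kinetochore (31 and 40, 8291 bp). Socs3, the inhibitor of STAT3 signalling, followed at 23 and 49 (6264 bp), and Mtf2, a partner of Polycomb complex 2, at 42 and 58 (153 bp). Ttc39b, the adiponectin receptor gene Adipor2 and Pipox completed the 8. All 8 lay at most 39 bp from a Chaf1a.2122 position. Among shared sites at listed enhancers of embryonic stem (ES) cells, the best, assigned to Rims2, ranked 3 and 9 and lay 154 bp from the listed enhancer, and those of Mreg, Sgms1, Nedd4 and Dusp14/Tada2a followed.

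The strongest Chaf1a.166-only sites began at far lower ranks. The best near a start site was on chromosome 12 at 17542401 (mm9), 9277 bp from the start of the ornithine decarboxylase gene Odc1, which opens polyamine synthesis. It ranked 2185, and the closest Renilla position was 238466 bp away. Next came the Sox2 gene itself, on chromosome 3 at 34552977, 4051 bp from its start, at rank 4136 with a score of 35.3 and an enrichment of 13.3. A Chaf1a.2122 position lay 13 bp from it, and the closest one of Renilla 93860 bp. Cenpm, of the centromere, ranked 4235, and Pkm2, of glycolysis, 4918 (230 bp from the start). Hist1h2ae, Gm11346, Zfp148 and Fgd4 completed the 8, of which the Chaf1a.2122 list held 7, all but Cenpm. At enhancers the best were assigned to Pml/Stoml1 (rank 3644), Ptgfrn, the iron exporter Slc40a1, Etl4 and the RNA-binding protein gene Igf2bp3. At any distance the best 5 had as their nearest listed starts those of Rel (380827 bp), Odc1 (9277 bp), Lgmn (587636 bp), Hes1 (196989 bp) and Pvt1 (68736 bp). So 4 of the 5 were outside 10 kb of any listed start. The last of them lay 7423 bp from a listed enhancer assigned to Myc/Pvt1. The sites assigned to Rel and Lgmn lay 301 and 285 bp from a Renilla position, and with neighbours joined within 500 bp they became shared, as did that of Etl4.

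The strongest Renilla-only sites also began below the top ranks. The best near a start site ranked 4713 and lay 2361 bp from Frs2, the adaptor that couples FGF receptors to MAPK signalling, on chromosome 10 at 116583169, and the nearest Chaf1a.166 position was 150102 bp away. Rbm34, Ssr2 and Tbc1d10b followed at ranks 5127, 5496 and 5571. Dnajb1, a heat-shock co-chaperone, ranked 5885, and Hes6, a member of the Hairy/Enhancer of split family, 5922, only 83 bp from its start. Grlf1 ranked 5963 with the closest Chaf1a.166 position 129062 bp away, and Gtl3 was the last of the 8. The Chaf1a.2122 list held 6 of them, all but Tbc1d10b and Dnajb1. Enhancer sites were assigned to Etl4 (rank 3331), H6pd, Ahnak/Eef1g, Srrm1 and Cox4i1/Cox4nb/Gse1. The Etl4 site is 212 bp from the Chaf1a.166-only site named above. At any distance the best 5 had as their nearest listed starts those of Scd2 (18326 bp), Usp53 (69222 bp), Mtbp (885654 bp), Ppfibp2 (96605 bp) and Rel (380526 bp), all outside 10 kb. The sites assigned to Scd2 and Rel became shared with a joining distance of 500 bp.

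Most sites of every class were far from the start sites and enhancers in the table used, which lists 5513 start sites of 5154 genes and 14265 enhancers of ES cells, and the Chaf1a.166-only class was the nearest to them. Within 10 kb of a listed start site were 9.39% of shared (8.88 to 9.92), 12.5% of Chaf1a.166-only (11.4 to 13.6) and 9.36% of Renilla-only sites (8.60 to 10.2). The median distances were 172749, 126971 and 189037 bp. The order Chaf1a.166-only over Renilla-only was the same at each distance measured, with 3.46% against 2.46% within 500 bp, 6.62% against 4.83% within 2 kb and 31.8% against 24.8% within 50 kb. Within 500 bp of a listed enhancer were 2.89% of shared (2.60 to 3.20), 3.30% of Chaf1a.166-only (2.75 to 3.93) and 2.03% of Renilla-only sites (1.67 to 2.43). At equal list length the shares near start sites were 9.32%, 12.3% and 8.85%, and those at enhancers 2.89%, 3.24% and 1.97%.

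**Figure D3:**
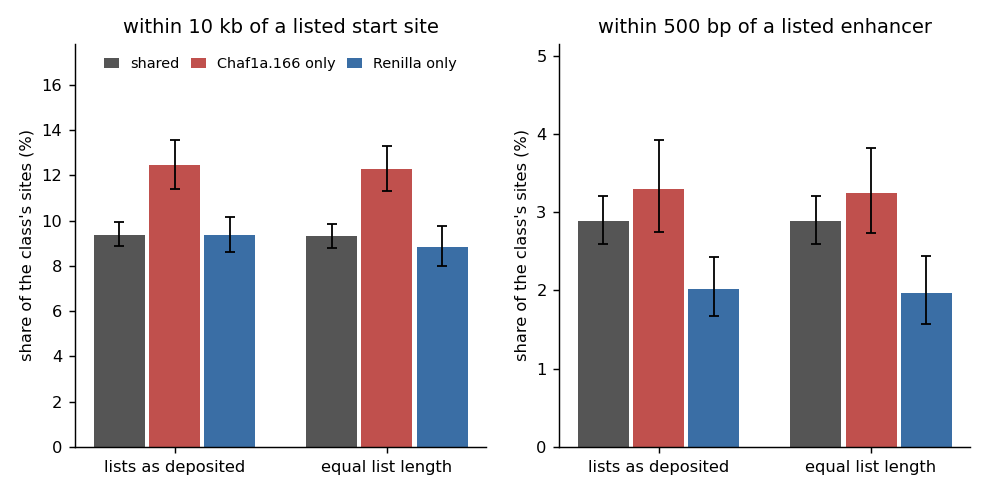
Share of the sites of each class (%, y axis) within 10 kb of a listed start site (left) and within 500 bp of a listed enhancer (right), with the lists as deposited and at equal length, and 95% exact Clopper-Pearson intervals as error bars. The Chaf1a.166-only bar stands above the Renilla-only bar in all 4 pairs, and the intervals of these pairs do not overlap.

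Chaf1a.166-only sites also had the higher share of the single-list classes in several subsets of the sites. They did so on 15 of 20 chromosomes for start sites and on 15 of 20 for enhancers. Among sites in the best 10000 of their own list, 12.3% (10.2 to 14.6) of Chaf1a.166-only and 7.56% (6.04 to 9.32) of Renilla-only ones were near a start site, and among the later ones 12.5% and 9.79%. Among sites that the Chaf1a.2122 list also held the shares were 11.0% (9.60 to 12.6) and 8.52% (7.46 to 9.69), so these intervals overlap slightly. Among those it did not hold they were 13.7% (12.2 to 15.3) and 10.1% (9.004 to 11.2). The lists as wholes differed less and their intervals overlap, with 10.1% (9.64 to 10.6) of Chaf1a.166 and 9.38% (8.95 to 9.82) of Renilla positions near a start site. In both lists the share was higher at lower ranks, from 9.06% of the best 5000 to 10.9% of those after rank 10000 in Chaf1a.166, and from 8.10% to 10.4% in Renilla. Rank, depth and input quality each belong to 1 library per hairpin, so hairpin and library cannot be told apart.

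The hairpin Chaf1a.2122, set against the same Renilla list, also had a higher share near start sites in its own class than in the Renilla-only class. Of its 5803 Chaf1a.2122-only sites 11.4% (10.6 to 12.2) were near a start site, of the 4171 Renilla-only sites of that comparison 10.1% (9.20 to 11.0), and of the 13482 shared ones 9.17% (8.69 to 9.67). The intervals of both single-list classes overlap, the shared class was the lowest here, and both comparisons share the Renilla list. At enhancers the values were 2.76%, 2.16% and 2.74%.

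**Figure D4:**
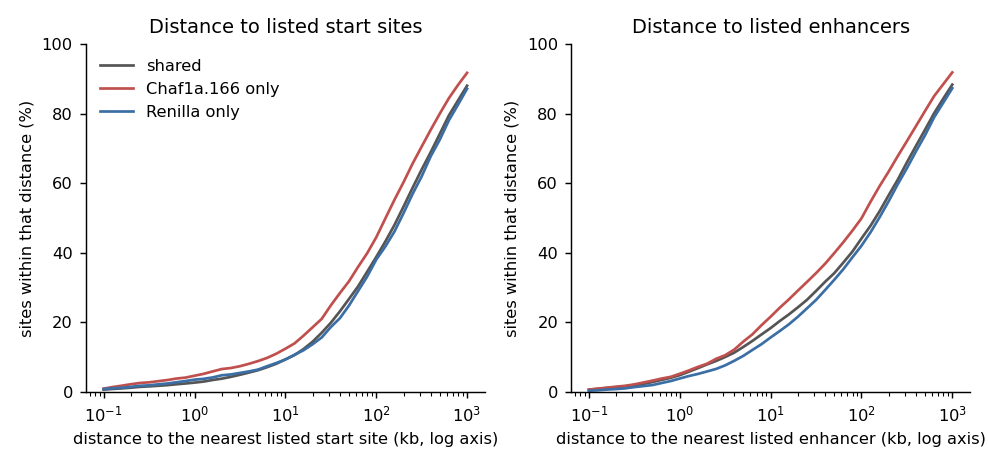
Cumulative share of sites (%, y axis) within a given distance (kb, log axis) of the nearest listed start site (left) or enhancer (right), for shared (grey), Chaf1a.166-only (red) and Renilla-only (blue) sites. The red curve lies above the blue one at each distance drawn, and the medians to start sites are 126971 and 189037 bp.

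Pairs of a Sox2 site and a close start site mostly had the site upstream. Pairs were counted for the 3304 start sites whose gene has exactly 1 RefSeq promoter on the same chromosome. Within 1 kb the site was upstream in 77.6% of 210 shared pairs (71.4 to 83.1). It was so in 78.0% of 127 Chaf1a.166-only (69.7 to 84.8) and 68.5% of 143 Renilla-only pairs (60.2 to 76.0). A site between divergent genes counts as upstream of both, while the intervals take pairs as independent. Within 10 kb the shares were 56.0%, 57.7% and 55.6%, and the intervals of the classes overlap at both distances.

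The Chaf1a.2122 list held most shared sites and a smaller part of both single-list classes. A Chaf1a.2122 position lay within 200 bp of 90.3% of shared (89.8 to 90.9), 46.0% of Chaf1a.166-only (44.4 to 47.6) and 45.6% of Renilla-only sites (44.3 to 46.9). As deposited, the last 2 intervals overlap. In the best 10000 of each list the shares were 65.7% (62.5 to 68.8) and 70.4% (67.6 to 73.2). With all 3 lists at equal length they were 36.7% (35.2 to 38.16) and 39.7% (38.18 to 41.2) over all ranks, so the Renilla-only share was then the higher and the intervals did not overlap. At that length the shares after rank 10000 were 29.5% (27.9 to 31.1) and 33.3% (31.7 to 35.0).

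Of the 5154 listed genes, 1117 had a shared site within 10 kb of a start site (21.7%), 508 a Chaf1a.166-only site (9.86%) and 554 a Renilla-only site (10.7%). These percentages are the background for the gene groups that follow. At equal length the order of the single-list classes turned, with 569 genes near a Chaf1a.166-only and 420 near a Renilla-only site. Both single-list classes occurred at 81 genes and all 3 classes at 36. A gene can be near sites of several classes, members of a group can share a site, and the groups are small, so their counts are descriptions.

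Of the 29 pluripotency genes in the table, 9 were near a shared site, 5 near a Chaf1a.166-only site and 0 near a Renilla-only site. No gene was in more than 1 class. The shares of all listed genes were 21.7%, 9.86% and 10.7%. In a group of 29 genes the 0 and the 5 were not tested against these shares. The list was chosen with earlier results of these data known. Fgf4, a textbook joint target of Sox2 and Oct4, had the best site of the group, 3019 bp from its start, ranked 202 in Chaf1a.166 and 191 in Renilla. Gdf3, a ligand of the TGF-beta family, ranked 1143 and 907. Trim28, the co-repressor of retroelements, had 2 shared sites. That 9778 bp from its start ranked 1086 and 990, and that 853 bp away 10667 and 5787. For Klf2, a Krüppel-like factor of naive pluripotency, the ranks were 1316 and 6264, for L1td1 1066 and 3056, and for Upp1, a uridine phosphorylase, 2577 and 8493. Fbxo15 ranked 2150 and 4508, and Pou5f1, which encodes Oct4, 5126 and 10526. Nanog had 2 shared sites, of which one ranked 6128 and 10583 and the other 10731 and 6468. The better rank was in the Chaf1a.166 list for Klf2, L1td1, Upp1, Fbxo15 and Pou5f1. It was in the Renilla list for Fgf4, Gdf3 and both Trim28 sites, while the Nanog sites differed. Ranks from 2 lists of unequal length do not show a change.

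The Chaf1a.166-only sites of this group included those near Sox2, Mycn, Jarid2 and Sall4. Unlike the Sox2 site, those of the other three ranked low and were not held by the Chaf1a.2122 list. Mycn, a Myc family transcription factor gene, had a position 71 bp from its start at rank 15612 of 15888. Jarid2, of Polycomb complex 2, had 2 sites, at ranks 9926 and 11726. Sall4, a zinc finger factor of ES cells, had 1 at rank 9568, 197376 bp from any Renilla position. The nearest Chaf1a.2122 positions were 41311 bp from the Mycn site, at least 14933 bp from the Jarid2 sites and 109651 bp from that of Sall4.

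Of 8 genes of CAF-1 and other histone chaperones in the table, 2 were near a shared, 4 near a Chaf1a.166-only and 0 near a Renilla-only site. The shares of all listed genes were 21.7%, 9.86% and 10.7%. In a group of 8 genes, 0 is near the 10.7% of all listed genes. The Wnt (0 of 6) and epithelial (0 of 8) groups had no Renilla-only site either. Rbbp4, the CAF-1 subunit that binds histone H4, had 3 shared sites, of which that 75 bp from the start ranked 5132 in Chaf1a.166 and 11744 in Renilla. The others ranked 11425 and 11695, and 10167 and 10485. Npm1, nucleophosmin, ranked 8797 and 8963. The Chaf1a.166-only sites were at Chaf1b, a CAF-1 subunit (136 bp from the start, rank 15661), Nasp, a chaperone of H3 and H4 (845 bp, 14662), Cabin1, of the HIRA complex (894 bp, 11410), and Daxx, the H3.3 chaperone (6437 bp, 12977). The closest Renilla positions were 67946 bp or more from the 4 sites. The Chaf1a.2122 list held those at Chaf1b and Nasp. All 4 were of low rank, and the Chaf1a.166 list gave the Chaf1b position an enrichment of 1.79 only.

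Of 7 Notch genes in the table, 4 were near a shared, 0 near a Chaf1a.166-only and 4 near a Renilla-only site. The shares of all listed genes were 21.7%, 9.86% and 10.7%. In a group of 7 genes, 0 is near the 9.86% of all listed genes. Notch1, a receptor, had a shared site 362 bp from its start, ranked 438 in Chaf1a.166 and 238 in Renilla, and Renilla-only sites 3099 and 1297 bp from it, at ranks 10026 and 15702. Notch2 ranked 1518 and 1794, and the ligand gene Jag1 1336 and 1950. Nrarp, besides its top-ranked site, had a Renilla-only site 5125 bp from the start at rank 12281. Maml1, the co-activator of Notch transcription, had a Renilla-only site 86 bp from its start (rank 14928, with an enrichment of 1.56 only). Rbpj, the DNA-binding partner of Notch, had one 9703 bp away (rank 12876). Of the 5 Renilla-only sites the Chaf1a.2122 list held 3, near Nrarp, Notch1 and Maml1.

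In the FGF and MAPK group, 5 of 9 genes were near a shared site, 4 near a Chaf1a.166-only and 1 near a Renilla-only site. Over all listed genes the shares were 21.7%, 9.86% and 10.7%, and 1 of 9 is near the last of these. Etv4, an ETS factor induced by FGF signalling, had Chaf1a.166-only sites 109 and 1566 bp from its start, at ranks 7561 and 12025, and the Chaf1a.2122 list held both. Etv5, its close relative, had one of each kind, a shared site (ranks 7033 and 12153) and a Chaf1a.166-only site (10087) held by Chaf1a.2122. The feedback inhibitor genes Spry4 and Spred2 had strong shared sites, at ranks 1481 and 2113 for Spry4 and 529 and 598 for Spred2, with weaker single-list sites beside them. Dusp6, the ERK phosphatase gene, had 3 shared sites, the one 57 bp from the start ranking 7052 and 5249.

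In the TGF-beta, BMP and Nodal group, 3 of 10 genes were near a shared, 2 near a Chaf1a.166-only and 3 near a Renilla-only site. Over all listed genes the shares were 21.7%, 9.86% and 10.7%, and the group is small. The Id genes, which encode inhibitors of basic helix-loop-helix factors, fell on both sides. Id2 had Chaf1a.166-only sites 52 and 2875 bp from its start (ranks 15594 and 9754) and the closest Renilla position was 25772 bp from them. Id1 had a Renilla-only site 15 bp from its start (rank 9088) and Id3 one 451 bp away (15450), both held by Chaf1a.2122 and both beside shared sites. Smad7, the inhibitory SMAD, had 1 Chaf1a.166-only site (rank 5698) and 3 Renilla-only sites (9498, 9632 and 12839) within 10 kb. Smad6 had a shared site 21 bp from its start, at ranks 7920 and 11283.

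In the Wnt group, 4 of 6 genes were near a shared site, 1 near a Chaf1a.166-only site and 0 near a Renilla-only site. For each group of this paragraph, the shares of all listed genes were 21.7%, 9.86% and 10.7%. In a group of 6 genes, 0 is near the 10.7%. Members were matched by symbol. The Tcf3 counted here lies on chromosome 10 and is a different gene from Tcf7l1 on chromosome 6, and its place in the Wnt group was not checked. Tcf7l1, a repressor of Wnt targets, ranked 765 and 471, the receptor gene Fzd7 690 and 863, and Ctnnb1, which encodes beta-catenin, 6200 and 5876. Fzd5 had a shared site (2636 and 4919) and a Chaf1a.166-only site (8010), 4044 and 5220 bp from the start. Of 5 Sox genes, Sox2 and Sox15 were near a Chaf1a.166-only site, Sox4 near 2 Renilla-only sites (ranks 9813 and 16078) and Sox11 near a shared site (10042 and 6128). The Sox15 position ranked 13433 with an enrichment of 1.76 only, and the same site also lies near Cd68. Of 3 immediate early genes, Junb (2059 and 2055) and Fos (8648 and 9436) were near a shared site, and Fos had a weak Chaf1a.166-only site as well.

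Among genes of the starting cell, 3 of 5 fibroblast genes in the table were near a shared site, 2 near a Chaf1a.166-only and 1 near a Renilla-only site. For each group of this paragraph, the shares of all listed genes were 21.7%, 9.86% and 10.7%. Fn1, fibronectin, had shared sites 200 and 7029 bp from its start and a Chaf1a.166-only site between them at rank 15461, and Sparc had 2 shared sites. Tead1 had 1 site of each single-list class and no shared one. Of 8 epithelial genes, Cdh1 (ranks 6111 and 12759) and Cldn4 (3105 and 2298) were near a shared site and Cldn6, a claudin of ES cells, near a Chaf1a.166-only site (6751) held by Chaf1a.2122. Of 3 endothelial genes in the table, Tek, a receptor kinase gene, had a shared site 87 bp from its start (533 and 973). The others, Cldn5 and Pecam1, had no site within 10 kb. Cd68, the only macrophage and blood gene in the table, had 2 Chaf1a.166-only sites and 1 Renilla-only site within 10 kb. The only neural gene in the table, Olig2, had no site within 10 kb, and no muscle gene was listed. The counts of all 14 gene groups were the same at equal list length. In all, the Chaf1a.2122 list held 13 of the 25 Chaf1a.166-only, 10 of the 15 Renilla-only and 47 of the 50 shared sites near these genes.

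**Figure D5:**
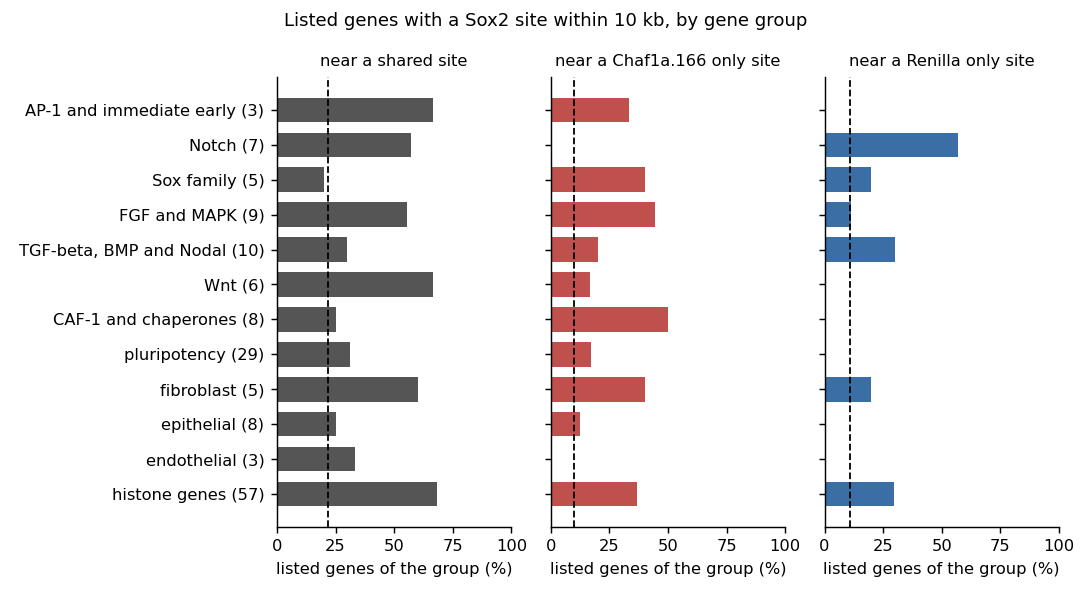
Share of the listed genes of each group (%, x axis) with a shared (left), Chaf1a.166-only (middle) or Renilla-only site (right) within 10 kb of a start site. The number of genes in the table is in parentheses, the dashed line is the share of all 5154 listed genes (21.7%, 9.86% and 10.7%), and groups under 3 genes are not drawn. The pluripotency, CAF-1, Wnt, AP-1, epithelial and endothelial groups have no Renilla-only bar. The Notch and endothelial groups have no Chaf1a.166-only bar.

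Histone genes often lay near Sox2 sites of each class. They were chosen after their values had been seen, by the symbols that start with Hist and a digit, and 46 of their start sites lie on chromosome 13 and 10 on chromosome 3, so many genes share a site. Of the 57 in the table, 39 were near a shared site (68.4%, background 21.7%), 21 near a Chaf1a.166-only (36.8%, background 9.86%) and 17 near a Renilla-only site (29.8%, background 10.7%). Counted as sites, 23 shared, 9 Chaf1a.166-only and 7 Renilla-only ones lay within 10 kb of a histone start, and 10, 5 and 4 within 500 bp. At equal length the Chaf1a.166-only genes numbered 26 and the Renilla-only ones 14. Histone genes have near-identical copies, so reads placed among them are uncertain, and the part of this in the counts was not tested.

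Some genes gathered several single-list sites. Of the 5154 listed genes, 45 had 2 or more Chaf1a.166-only sites within 10 kb, 49 had 2 or more Renilla-only sites, and 0 had 2 or more of both. Both sets are a small part of the listed genes, so the 0 is no result about them. Neighbouring genes can share the same sites. Phc1, of Polycomb complex 1, and Zfp78 had 3 Chaf1a.166-only and 0 Renilla-only sites. Rnf122, Hist2h2bb and Hist2h3b had 3 Renilla-only and 0 Chaf1a.166-only sites, while Tgif1, Smad7 and Slc1a4 had 3 Renilla-only sites and 1 of the other class. Of 2281 windows of 1 Mb with a site, 589 had more Chaf1a.166-only, 1196 more Renilla-only and 496 equal numbers, with the lists as deposited and so with more Renilla-only sites in all. The greatest excess of Renilla-only sites was on chromosome 10 from 83 to 84 Mb, with 15 against 3 Chaf1a.166-only and 15 shared. The greatest excess the other way was on chromosome 5 from 23 to 24 Mb, with 8 against 1 and 10 shared.

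Sono-seq, which reads the DNA freed by sonication of cross-linked chromatin, was deposited as 1 value for the CAF-1 knockdown and 1 for Renilla at each region. The labels list 3 Sono-seq libraries per condition, and how they were combined is not given. At all 14265 listed enhancers the median log2 ratio, CAF-1 knockdown to Renilla, was 0.03 (order-statistic interval 0.02 to 0.03). At enhancers within 500 bp of a shared site it was 0.01 (-0.02 to 0.04, 353 regions), of a Chaf1a.166-only site 0.01 (-0.03 to 0.07, 122) and of a Renilla-only site 0.00 (-0.04 to 0.06, 110). At all 5513 listed promoters it was -0.01 (-0.017 to -0.003). At those of the 3 classes it was -0.02 (-0.07 to 0.03, 270), -0.04 (-0.08 to 0.04, 142) and -0.06 (-0.114 to -0.025, 153). The classes' intervals overlap at both kinds of region. At promoters the Renilla-only interval lies below that of all listed ones. The value was higher in the CAF-1 knockdown at 46.7% (40.6 to 52.8) of promoters with a shared site, 41.5% (33.3 to 50.1) with a Chaf1a.166-only site and 38.6% (30.8 to 46.8) with a Renilla-only site, against 48.2% (46.9 to 49.5) of all listed promoters. The intervals of the 3 classes overlap, while the Renilla-only interval lies just below that of all listed promoters. These intervals take regions as independent, and the label names a CAF-1 knockdown without the hairpin.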

How the data were processed

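Sox2 ChIP-seq of 1 immunoprecipitate and 1 input per hairpin was deposited as lists of mm9 positions. Per the submitters' processing notes, BWA 0.7.8 and Bowtie were used, without a stated role, and the sources used here name no calling program. The lists give, per the file headers, a score, a false discovery rate (q-value, at most 0.000644 in Chaf1a.166 and 0.000545 in Renilla) and an enrichment ratio over input with its lower bound. These deposited values rank or filter positions within their own list only. The authors' Sono-seq values were treated as a score, since their unit is not given. Symbols that had turned into dates were restored through the RefSeq transcript for 136 of its rows.

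Positions within 200 bp were chained into sites, and distances run from the middle of a site. Shares have exact Clopper-Pearson and counts exact Poisson 95% intervals. Named genes are the 8 best sites per class within 10 kb of a start, the 5 best per single-list class, the 5 best per class at enhancers, the 4 best promoter sites per class, of which 7 are shown, and the members of 14 gene lists. One listed gene is counted but not reported here. The members and lists were chosen with earlier results of these data known. Motifs were searched in RefSeq promoters of GRCm38.p6. Joining and distances were tested on simulated lists. Alternatives were other joining distances, equal lengths, a lower bound of 2, autosomes only, and other distances to genes and enhancers. Python 3.11.15, pandas 2.3.3, NumPy 2.4.6, SciPy 1.17.1 and matplotlib 3.10.9 were used.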

Additional observations from a re-analysis of the deposited data

How the results depend on the processing

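Site counts stayed within 1.5 times of the reported ones under other joining distances, equal length, ranking by enrichment and autosomes only. With the best 10000 positions of each list, 7611 sites were shared, 2386 Chaf1a.166-only and 2382 Renilla-only, and with a lower bound of at least 2 in both lists 7332 were shared, as fewer positions enter. The Chaf1a.166-only share of single-list sites was 41.4% when joined within 100 bp, 50.1% at equal length by score, 50.0% for the best 10000, 50.1% when ranked by enrichment and 43.9% with the lower bound. Shares near start sites scaled with the distance allowed. Within 2 kb they were 3.86% (shared), 6.62% (Chaf1a.166-only) and 4.83% (Renilla-only), and within 50 kb 26.7%, 31.8% and 24.8%. At enhancers they were 1.41%, 1.57% and 0.876% within 200 bp and 4.87%, 5.27% and 3.90% within 1000 bp. Genes near the 3 classes numbered 479, 261 and 284 within 2 kb and 2853, 1502 and 1585 within 50 kb. The Chaf1a.2122 list held 36.7% of Chaf1a.166-only and 39.7% of Renilla-only sites at equal length of all 3 lists, and 47.8% of Renilla-only sites within 500 bp.

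Subsets chosen after seeing the data moved 6 of 16 shares outside the interval of the full class. Near start sites these were 11.0% (held by Chaf1a.2122) and 13.7% (not held) of Chaf1a.166-only sites, and 7.56% (best 10000) and 8.52% (held) of Renilla-only sites. At enhancers they were 1.32% (best 10000) and 1.53% (lower bound of 2) of Renilla-only sites. The Chaf1a.166-only share near start sites and at enhancers was above the Renilla-only share under each alternative run and in each of these subsets.

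No paired analysis was possible because each hairpin has 1 Sox2 immunoprecipitate and the Sono-seq table gives 1 value per condition for its 3 libraries, and for the same reason no replicate was left out. Depth is unknown, which limits every single-list class.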
